A study of Macaca mulatta with 4 samples.

Results

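The cation-chloride cotransporters and WNK kinases described here are 8 genes, SLC12A2, SLC12A5, SLC12A7, WNK1, WNK2, WNK3, STK39 and OXSR1, found by their symbols among 33618 genes in a table of RNA-seq counts from infant rhesus macaque (Macaca mulatta) prefrontal cortex. All 8 passed the filter on low counts, as did 17693 genes in all. The table holds 4 libraries of wild-type animals, 2 of a control group given no agent and 2 of a group given sevoflurane, a volatile anaesthetic. According to the labels' protocols, about 2.5 to 3% sevoflurane was breathed for 4 hours on each of several occasions, the first near postnatal day 7 and later ones 14 and 28 days on, and cortex was collected right after the last. The sources used here do not give how control animals were handled, or whether the libraries of a group came from separate animals. The p-values therefore reflect only library-to-library spread, which may be technical.

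Neurons set their chloride level by transporters that couple chloride to sodium and potassium. NKCC1, the product of SLC12A2, loads cells with chloride, and KCC2, the product of SLC12A5, is the neuronal extruder whose rise in early life goes with the change of GABA from a depolarising to an inhibitory transmitter. WNK kinases sense chloride and activate the kinases SPAK (STK39) and OSR1 (OXSR1), which phosphorylate the transporters, raising import by NKCC1 and lowering export by the KCC proteins. Sevoflurane acts in part through GABA-A receptors, which are chloride channels. RNA counts measure neither protein nor phosphorylation.

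Total counts ran from 7793757 (control replicate 3) to 11706115 (sevoflurane replicate 3). Control replicate 3 stood apart from the other libraries, with a score of 59.56 against -32.02 to -3.12 on principal component 1, which took 52.3% of the variance. Of the marker lists, oligodendrocyte genes separated the groups most widely. All 10 tested were lower after sevoflurane by edgeR's quasi-likelihood test at an adjusted p under 0.05, with a summed level of 9306 and 14720 CPM (read counts scaled by TMM to a common library size) in control replicates 2 and 3 against 2424 and 3619 in sevoflurane replicates 2 and 3. None of 10 neuron markers was called by that test (0 had an unadjusted p under 0.05), with summed levels of 7633, 9167, 9307 and 9210 CPM in the same order of libraries. No marker on either list was at 0. In bulk tissue, fewer cells of a type and less RNA per cell cannot be told apart.

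None of the 8 genes was called as changed by edgeR's quasi-likelihood test, adjusted by Benjamini-Hochberg over all genes tested. The background was 0.599% of genes called. At an unadjusted p under 0.05 there was 1 of the 8, WNK1, beside 9.92% of all genes. DESeq2 called 1, also WNK1, and limma-voom 0. The median log2 fold change over the 8 was -0.06, beside -0.002 over all genes tested. The groups did not overlap for 3 of the 8, as for 41.2% of all genes tested. SLC12A5 was the 1 with both sevoflurane libraries above the controls, beside 20.8% of all genes, and SLC12A7 and WNK1 were the 2 with both below, beside 20.4%. The levels below are not compared between genes, because transcript lengths were not used.

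**Figure D1:**
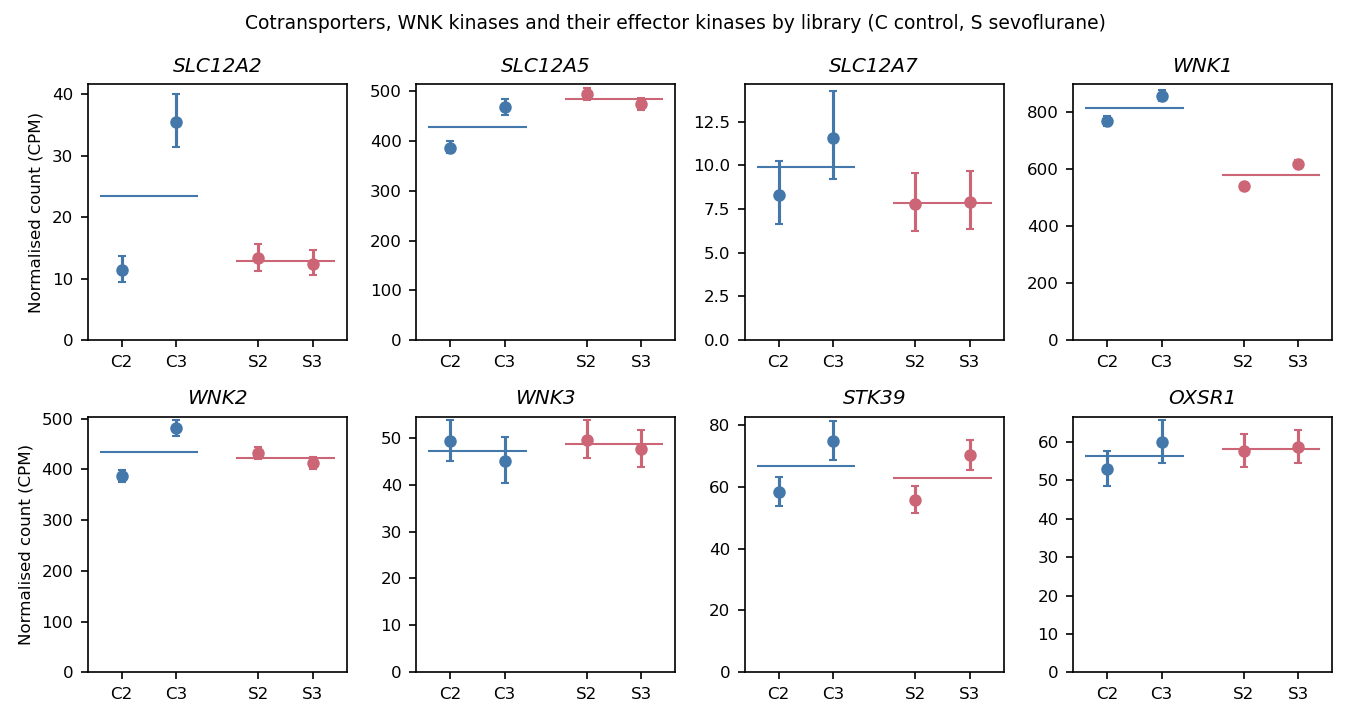
Each panel plots the normalised count (CPM, linear axis from 0) of 1 gene in control replicates 2 and 3 (C2, C3) and sevoflurane replicates 2 and 3 (S2, S3); bars are 95% Poisson intervals, which cover counting error only, and lines are group means. SLC12A2 is high in control replicate 3 alone, at 35.5 CPM, and the WNK1 groups do not overlap.

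SLC12A2, the chloride loader, had 11.4 and 35.5 CPM in control replicates 2 and 3 and 13.3 and 12.5 CPM in sevoflurane replicates 2 and 3. A single control library was thus high, and the other lay below both sevoflurane libraries, so the groups overlapped. The raw counts behind these levels were 117, 268, 156 and 147. The 95% Poisson interval was 31.4 to 40.1 CPM in control replicate 3 and 9.44 to 13.7 CPM in control replicate 2, so counting error does not span the gap between the controls. That 3.11-fold gap was wider than the gap between the same libraries in 96.6% of 17194 genes with a mean of at least 1 CPM. The sevoflurane pair differed by far less, with a ratio of 0.936.

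The fitted log2 fold change of SLC12A2 was -0.85 (SE 0.43, adjusted p = 0.579 by edgeR), from group means of 23.5 ± 17.1 CPM in controls and 12.9 ± 0.605 CPM after sevoflurane (SD, n = 2 per group). The 95% interval of the fold ran from 0.285 to 1.08 and held both no difference and a large fall. Control replicate 3 decided the value. Without it the log2 fold change was 0.18, and without control replicate 2 it was -1.46. The summed oligodendrocyte markers were highest in control replicate 3 and next highest in control replicate 2. Of 5 choroid plexus markers tested, 0 were called, and their summed level was 29.8 and 37.3 CPM in controls and 24.7 and 26.2 CPM after sevoflurane. Control replicate 3 had the highest sum, with AQP1 (20.0 CPM) and CLIC6 (7.03 CPM) at their highest there and TTR and KCNJ13 at 0. The mean log2 deviation of these markers was instead lowest in control replicate 3 (-0.551). Their log2 fold changes were positive for 4 and negative for 1, AQP1 (-1.60). The part of cell composition in the SLC12A2 values was not tested.

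SLC12A5, the neuronal chloride extruder, had 387 and 468 CPM in control replicates 2 and 3 and 494 and 475 CPM in sevoflurane replicates 2 and 3. Both sevoflurane libraries lay above both controls, by a narrow margin over control replicate 3. Means were 428 ± 57.5 CPM in controls and 485 ± 13.7 CPM after sevoflurane (SD, n = 2 per group). The fitted difference was 0.18 on the log2 scale (SE 0.13, adjusted p = 0.723 by edgeR). The 95% interval of the fold was 0.929 to 1.38. A rise of more than 1.38-fold therefore lay outside the interval, as did a fall below 0.929 of the control level. With 3533 to 5786 raw counts per library, the difference was smaller than the spread between the controls, which differed 1.21-fold. The summed neuron markers had the same order of libraries as SLC12A5, with control replicate 2 at the bottom and sevoflurane replicate 2 at the top. Their mean log2 deviation did not keep that order. It was lowest in control replicate 2 (-0.314) and highest in control replicate 3 (0.185), with 0.062 and 0.067 in sevoflurane replicates 2 and 3. The part of neuron content was not tested. Without control replicate 2 the log2 fold change was 0.05, and without control replicate 3 it was 0.32.

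SLC12A7 encodes KCC4, a potassium-chloride extruder found in many tissues outside neurons. It was counted 85 to 93 times per library, which gave 8.3 and 11.5 CPM in control replicates 2 and 3 and 7.77 and 7.89 CPM in sevoflurane replicates 2 and 3. The groups did not overlap, but the Poisson intervals of control replicate 2 (6.63 to 10.3 CPM) and of both sevoflurane libraries (lowest bound 6.26, highest 9.67 CPM) covered each other. The log2 fold change was -0.33 (SE 0.29, adjusted p = 0.783 by edgeR), and at this depth a 95% interval of 0.508 to 1.24 in fold remained. Without control replicate 3 the value was -0.08, and without control replicate 2 it was -0.56.

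The RNA balance of extruder to loader was taken within each library as a ratio of raw counts, which does not depend on how libraries are scaled. There were 33.9 and 13.2 SLC12A5 counts for each SLC12A2 count in control replicates 2 and 3. The sevoflurane libraries had 37.1 and 38.1. Control replicate 2 was close to the sevoflurane pair, and control replicate 3 was far below all others. On the log2 scale the ratio was 4.40 ± 0.964 in controls and 5.23 ± 0.027 after sevoflurane (SD, n = 2 per group), a difference of 0.83. Without control replicate 3 the difference was 0.15, and without control replicate 2 it was 1.51. No test was made, since with 2 libraries against 2 the smallest two-sided exact permutation p is 0.333. For SLC12A5 against SLC12A7 the log2 ratios were 5.54 and 5.34 in controls and 5.99 and 5.91 after sevoflurane, groups that did not overlap, with a difference of 0.51. Each of these genes already did not overlap by itself, in opposite directions, and SLC12A7 had only 85 to 93 counts per library. The share of all gene pairs whose ratios do not overlap was not computed.

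**Figure D2:**
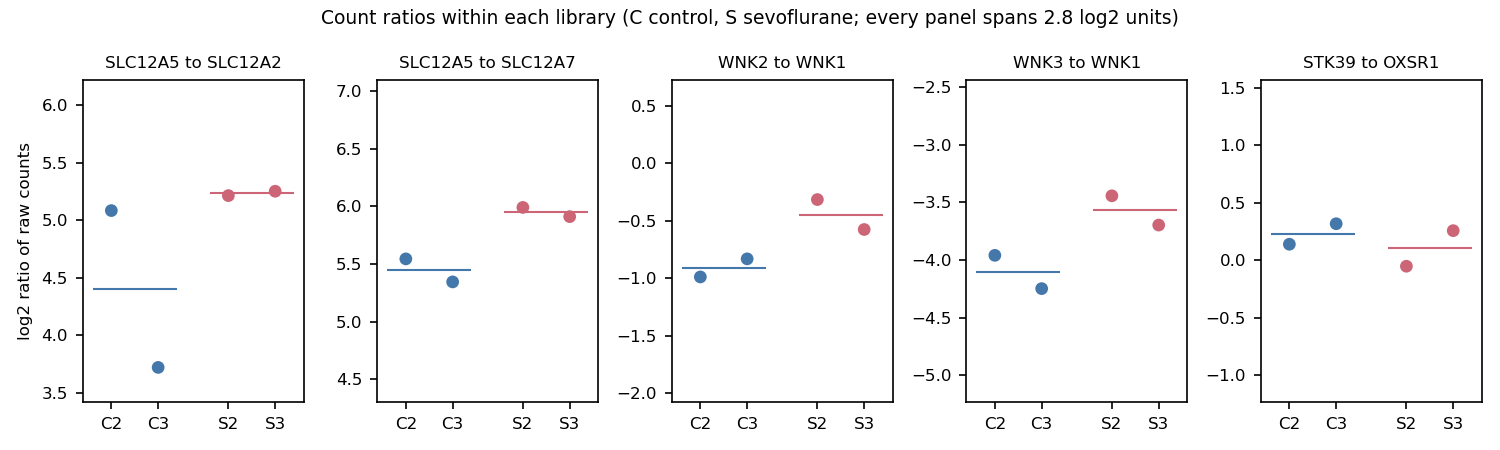
The log2 ratio of raw counts of a gene pair is plotted by library for control (C2, C3) and sevoflurane (S2, S3) replicates, with lines at the group means; panels differ in position but not in span. Every ratio except STK39 to OXSR1 is higher in both sevoflurane libraries than in either control. For SLC12A5 to SLC12A2, control replicate 2 lies close to the sevoflurane pair and control replicate 3 far below.

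WNK1, the most widely expressed WNK kinase, had 767 and 857 CPM in control replicates 2 and 3 and 539 and 616 CPM in sevoflurane replicates 2 and 3. Both controls lay above both sevoflurane libraries, and the gap between the groups was larger than the gap within either. Means were 812 ± 63.8 CPM and 578 ± 54.9 CPM (SD, n = 2 per group). The log2 fold change was -0.49 (SE 0.12, 95% interval -0.77 to -0.22, unadjusted p = 0.00281), and it did not pass adjustment over all genes tested (adjusted p = 0.157 by edgeR). It ranked 316 of 17693 genes by p. DESeq2 gave adjusted p = 0.0371 and limma-voom 0.125. Over the alternatives that kept all 4 libraries its adjusted p ranged from 0.0371 (DESeq2) to 0.233 (no filter). Leaving out control replicate 2 or 3 gave a log2 fold change of -0.57 or -0.41. Leaving out sevoflurane replicate 2 or 3 gave -0.40 or -0.59. The p-values of these last fits are not read as a result, since their spread came only from the group that kept both libraries. The order of libraries for WNK1, control replicate 3 highest and sevoflurane replicate 2 lowest, was also that of the summed oligodendrocyte markers. SLC12A7 had this order too, as did related genes including SLC12A4 and CLCN2. The part of oligodendrocyte content in these values was not tested.

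WNK2, a WNK kinase enriched in brain, had 387 and 482 CPM in control replicates 2 and 3 and 433 and 413 CPM in sevoflurane replicates 2 and 3. The sevoflurane values lay between the controls. Its log2 fold change was -0.04 (SE 0.13, adjusted p = 0.959 by edgeR), with a 95% interval of 0.792 to 1.20 in fold. WNK3, an X-linked WNK kinase expressed in neurons, had 49.3 and 45.1 CPM in control replicates 2 and 3 and 49.5 and 47.5 CPM in sevoflurane replicates 2 and 3. The groups overlapped within 5 CPM. The log2 fold change was 0.04 (SE 0.15, adjusted p = 0.963 by edgeR), with a 95% interval of 0.808 to 1.31 in fold.

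WNK1 was also set against the other WNK genes within each library, as a ratio of raw counts. The log2 ratio of WNK2 to WNK1 counts was -0.99 and -0.83 in the controls and -0.32 and -0.58 in the sevoflurane libraries. The groups did not overlap, and the difference of 0.46 was larger than the SD within controls (0.11) and within sevoflurane (0.18). It stayed between 0.33 and 0.59 with any 1 library left out. For WNK3 to WNK1 the difference was 0.53, with a range of 0.39 to 0.68. Both ratios share WNK1, whose own groups did not overlap, and neither was tested for the reason given above.

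STK39, which encodes SPAK, had 58.4 and 74.7 CPM in control replicates 2 and 3 and 55.6 and 70.2 CPM in sevoflurane replicates 2 and 3. Each group held 1 lower and 1 higher library, and the groups overlapped. The log2 fold change was -0.08 (SE 0.18, adjusted p = 0.936 by edgeR), with a 95% interval of 0.715 to 1.26 in fold. OXSR1, which encodes the closely related OSR1, had 53.0 and 59.9 CPM in control replicates 2 and 3 and 57.7 and 58.7 CPM in sevoflurane replicates 2 and 3. Its sevoflurane values lay within the range of the controls. The log2 fold change was 0.04 (SE 0.15, adjusted p = 0.959 by edgeR), with a 95% interval of 0.816 to 1.30 in fold. STK39 to OXSR1 count ratios were 1.10 and 1.25 in controls and 0.964 and 1.20 after sevoflurane, which overlapped.

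**Figure D3:**
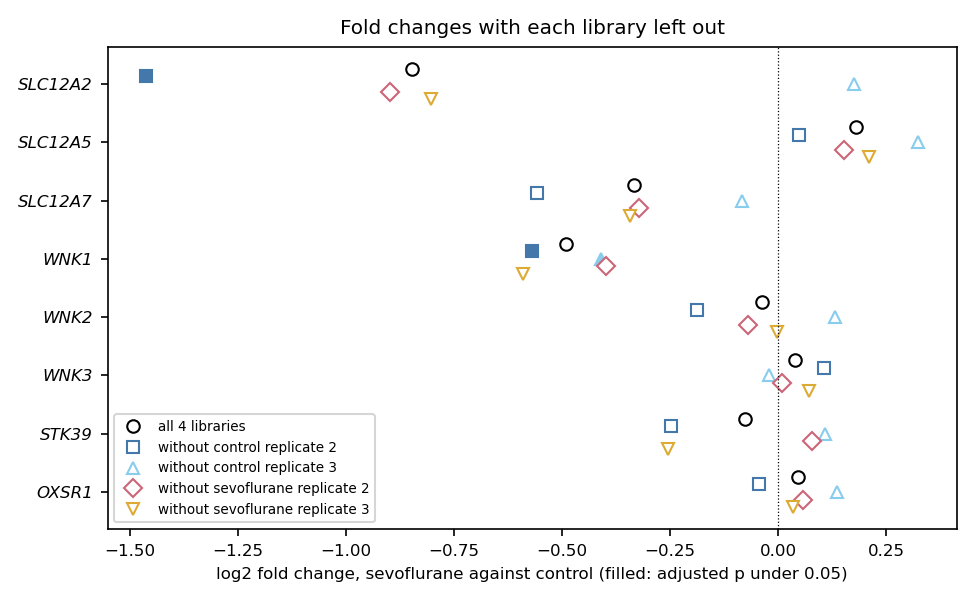
For each gene the log2 fold change of sevoflurane against control is plotted with all 4 libraries and with each library left out in turn. Filled symbols had an adjusted p under 0.05. With a library left out, the spread came only from the group that kept both, so filling there is not read as a result. WNK1 stays negative throughout (-0.59 to -0.40), whereas SLC12A2 runs from -1.46 to 0.18 and WNK2, WNK3, STK39 and OXSR1 cross 0.

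Among themselves the 8 genes varied least in WNK3 and OXSR1 and most in SLC12A2. Control replicate 3 was the highest library for 6 of them (SLC12A2, SLC12A7, WNK1, WNK2, STK39 and OXSR1), and it was not the highest for SLC12A5 or WNK3. The share of all genes that were highest in that library was not computed, so the 6 are not read as a trait of these genes. In the sevoflurane pair the ratio of replicate 3 to replicate 2 ran from 0.936 (SLC12A2) to 1.26 (STK39).

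**Figure D4:**
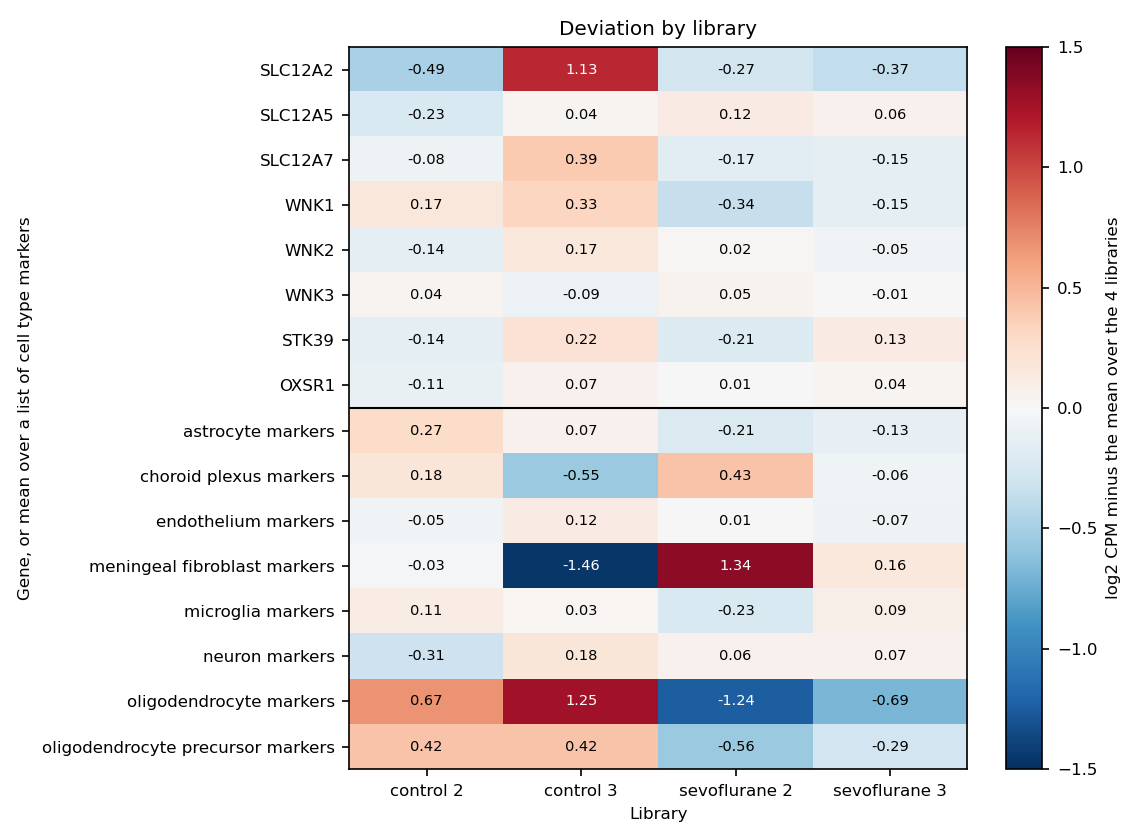
Cells give the log2 CPM of each gene, or its mean over a list of cell type markers, minus the mean over the 4 libraries. Control replicate 3 carries the highest value of SLC12A2 (1.13) and of the oligodendrocyte markers (1.25) and the lowest of the meningeal fibroblast markers (-1.46).

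Around these 8 genes, 44 others of chloride transport and its control were listed, and 43 passed the filter. Of the 43, 1 was lower, 0 higher and 42 not called by edgeR's quasi-likelihood test, where 0.537% of all genes were lower and 0.0622% higher. Their median log2 fold change was 0.03. The counts by list were 0 called of 5 other SLC12 genes, 0 of 14 regulators of WNK and SPAK, 1 of 11 partners and regulators of KCC2, 0 of 7 chloride and bicarbonate genes and 0 of 6 sodium-potassium pump subunits. At an unadjusted p under 0.05 there were 2 higher and 5 lower among the 43, against 4.35% higher and 5.57% lower over all genes.

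EGR4, an activity-induced transcription factor that drives the SLC12A5 promoter in rodent neurons, was the called gene. It had 25.5 and 25.3 CPM in control replicates 2 and 3 and fell to 5.81 and 4.41 CPM in sevoflurane replicates 2 and 3. The log2 fold change was -2.31 (SE 0.24, adjusted p = 0.00676 by edgeR). SLC12A5 was not called as changed in the same libraries, as given above. Any link between the levels of EGR4 and SLC12A5 was not tested.

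SLC12A3, the sodium-chloride cotransporter best known from the kidney, had 4.88 and 8.88 CPM in control replicates 2 and 3 and 16.5 and 30.0 CPM in sevoflurane replicates 2 and 3. Both sevoflurane libraries lay above both controls. Its log2 fold change of 1.78 (SE 0.37) missed the threshold by edgeR (adjusted p = 0.0812) and passed it by DESeq2 (adjusted p = 0.000919). The log2 fold change was 2.25 without control replicate 3 and 2.14 without sevoflurane replicate 2. It was smaller without control replicate 2 (1.39) or sevoflurane replicate 3 (1.28). Its kidney relative SLC12A1 had 4, 0, 3 and 9 raw counts and was not tested.

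SLC12A4, which encodes the widely expressed potassium-chloride extruder KCC1, had 53.9 and 70.7 CPM in control replicates 2 and 3 and 36.6 and 43.9 CPM in sevoflurane replicates 2 and 3, groups that did not overlap, in the same order of libraries as the summed oligodendrocyte markers, whose part was not tested. Its log2 fold change was -0.63 (SE 0.19, adjusted p = 0.256 by edgeR). Leaving out control replicate 2 or 3 gave -0.81 or -0.42, and leaving out sevoflurane replicate 2 or 3 gave -0.50 or -0.77. SLC12A9, an orphan member of the family, had -0.10 (SE 0.19). Among the kinase regulators, WNK4 had 0.81 (SE 0.48), the SPAK and OSR1 scaffold CAB39 0.23 (SE 0.13) and the kinase SGK1 -1.05 (SE 0.52), with adjusted p of 0.658, 0.632 and 0.577 by edgeR. SGK1 had -0.33 without control replicate 3 and -1.55 without control replicate 2. The chloride channel CLCN2 had -0.50 (SE 0.26) and the carbonic anhydrases CA2 0.42 (SE 0.33) and CA7 0.36 (SE 0.35), none of which passed.

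**Figure D5:**
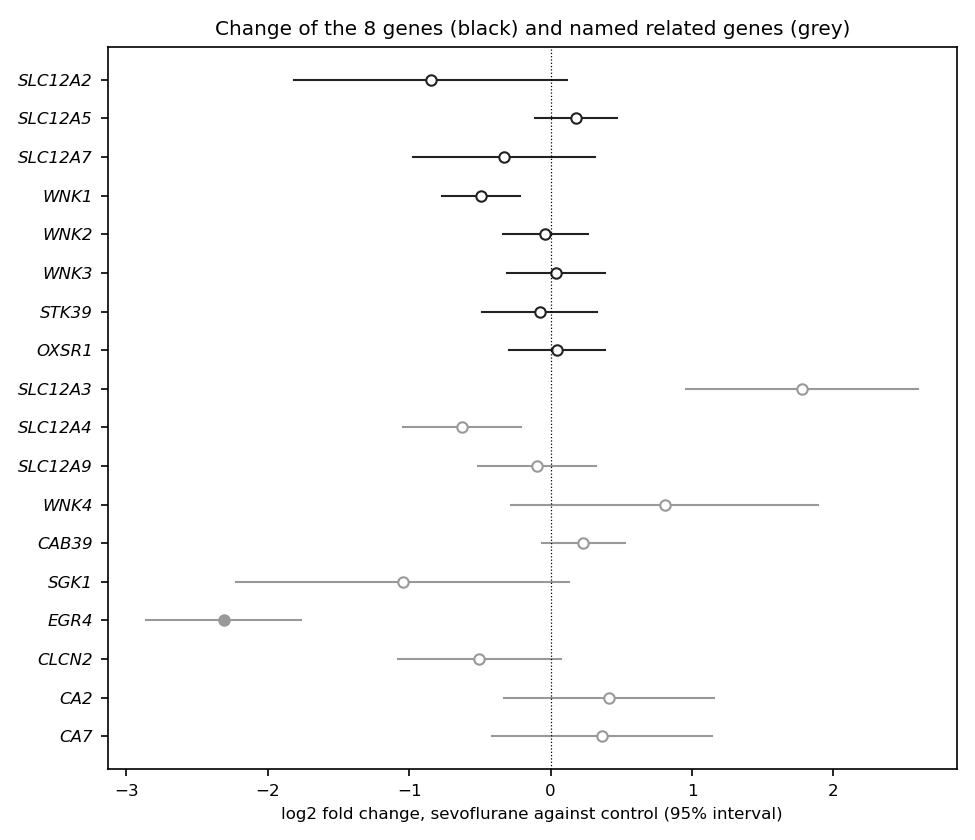
Log2 fold changes of sevoflurane against control with 95% intervals from edgeR are plotted for the 8 genes (black) and 10 named related genes (grey); the filled circle had an adjusted p under 0.05. EGR4 at -2.31 is the filled point. SLC12A3 at 1.78, SLC12A4 at -0.63 and WNK1 at -0.49 are open with intervals that leave out 0, and the others span 0.

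The genes closest to SLC12A2 in pattern were CRIP1, a LIM domain protein, KCNE5, a potassium channel subunit, and SH2D4A, an adaptor protein, at Euclidean distances of 0.132, 0.254 and 0.32 between log2 deviations over the 4 libraries. Only CRIP1 and KCNE5 of 13690 genes with a symbol lay within 0.3 of it. SLC12A5 had PSMF1, a proteasome regulator (0.0103), PPP6R2, a phosphatase subunit (0.0168), and YWHAG, a 14-3-3 protein (0.0191). As many as 3127 genes lay within 0.3 of SLC12A5. Its deviations were small, from -0.231 to 0.122, and distances were not scaled to their size. A gene that hardly varied would also lie near it, so this count does not show a common pattern.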

How the data were processed

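RNA-seq of prefrontal cortex was deposited as 1 table of raw counts per gene, which the authors made with HISAT2 as the aligner, per the submitters' processing notes. The sources used here give no version, counting program, genome build, annotation or strand setting, so reads of overlapping genes, antisense partners and close copies cannot be told apart. All 8 symbols matched a RefSeq gene table (names only). The members and gene lists were chosen with earlier results of these data known.

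The test was edgeR 4.0.16 in R 4.3.3 (filterByExpr, at least 10 counts at the median depth and 15 in total; TMM factors of 1.02, 0.969, 1.00 and 1.01; quasi-likelihood F test, two-sided, with group alone in the model). Calls needed an adjusted p (Benjamini-Hochberg, 17693 genes) under 0.05. SE and 95% intervals follow from the F statistic and are not adjusted. The steps were tested on simulated data. Replicates differed by more than sampling noise (chi-square per degree of freedom of 12 for the controls and 6.52 for the sevoflurane pair). Alternatives were DESeq2 1.42.0 and its size factors, limma-voom (limma 3.58.1), library size alone, no filter, a replicate block and leaving out each library. Named genes were the 8 members, called genes of the related lists, a set of related genes, of which some are not reported here, and the 3 nearest patterns of SLC12A2 and SLC12A5. The marker lists (neuron, oligodendrocyte and its precursor, astrocyte, endothelium, choroid plexus, meningeal fibroblast, microglia) had 0, 10, 2, 1, 0, 0, 1 and 1 called genes.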

Additional observations from a re-analysis of the deposited data

How the results depend on the processing

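No member was called with DESeq2 size factors, library size alone, no filter, limma-voom or the replicate block, and 1 was called by DESeq2. Scaling moved the median of all genes by at most 0.014 (log2). Calls over all genes were 11 higher and 95 lower, against 3 and 57 with no filter, 60 and 219 by DESeq2, 7 higher by limma-voom and 170 and 341 with the replicate block. With 1 library left out, the lone sample being assumed to vary like the other group, calls ranged from 57 to 187 higher and 121 to 420 lower, members called from 0 to 2 and related genes called from 1 to 4. Related genes called were 3 by DESeq2 and 5 with the block. Same-numbered libraries did not deviate together (correlation of 0.00898 across genes), so the numbers are not read as pairs. Log2 fold changes that reversed with 1 library left out ranged from -1.462 to 0.176 for SLC12A2, -0.189 to 0.13 for WNK2, -0.022 to 0.105 for WNK3, -0.255 to 0.108 for STK39, -0.044 to 0.135 for OXSR1 and -0.26 to 0.097 for SLC12A9. The sign turned without control replicate 3 for SLC12A2, WNK2, WNK3 and STK39 (for STK39 also without sevoflurane replicate 2) and without control replicate 2 for OXSR1 and SLC12A9. With the replicate block SLC12A3 (adjusted p = 8.42e-08) and SLC12A4 (0.0491) were called. The cause was not tested. The SLC12A5 to SLC12A2 difference ranged from 0.15 to 1.51 with 1 library left out. Of 180 alternative values over 18 genes, 163 kept direction and side of the threshold, 10 newly passed it and 7 reversed.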

Other observations

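Other genes of the WNK pathway were chosen here after their values were seen. TSC22D4, which binds WNK kinases and their partners, had 83.7 and 107 CPM in control replicates 2 and 3 and 62.5 and 60.5 CPM in sevoflurane replicates 2 and 3, a log2 fold change of -0.63 (SE 0.16, unadjusted p = 0.00308, adjusted p = 0.168 by edgeR). NRBP2, a pseudokinase related to the WNK family, had 69.2 and 64.4 CPM in controls and 44.6 and 49.0 CPM after sevoflurane (-0.51, SE 0.15, unadjusted p = 0.00734, adjusted p = 0.251 by edgeR). NEDD4L, a ubiquitin ligase of ion transporters, had 409 and 346 CPM in controls and 496 and 433 CPM after sevoflurane (0.30, SE 0.13, unadjusted p = 0.0477, adjusted p = 0.496 by edgeR). In all 3 the groups did not overlap, as in 8 of the 14 genes on their list and 41.2% of all genes tested, and none passed adjustment.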
